A study of Homo sapiens with 9 samples.

Results

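The genes described here encode the MHC class II antigen presentation machinery and its regulator. They were chosen by name as 8 genes, HLA-DRA, HLA-DPA1, HLA-DPB1, HLA-DMA, HLA-DMB, HLA-DOA, CD74 and CIITA, and every probe annotated to them was taken. They are 8 of the 20046 genes with a probe. This gave 11 of the 47323 probes on the array, with 2 probes for HLA-DRA, 3 for CD74 and 1 for each of the other genes. Of the 8 genes, 4 had a probe detected on at least 3 libraries and were among the 8611 genes tested: HLA-DRA, CD74, HLA-DMA and HLA-DMB.

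Total RNA from the human myeloid cell line U937, established from a histiocytic lymphoma, was hybridized to 9 bead arrays of the type Illumina HumanHT-12 v4. In 3 libraries the cells carried a lentiviral H1-driven short hairpin RNA against DEK named shDEK14, those of 3 carried a different hairpin against DEK named shDEK17, and those of 3 carried the same vector with no hairpin (shEMPTY). All cells were transduced, sorted for GFP after 48 h and grown for 4 further days, so the shEMPTY cells share the vector and the sort with the hairpin cells but are not untreated. The hairpins were meant to lower DEK, a chromatin protein, and the comparison asked which genes then change.

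MHC class II molecules carry peptides from endocytosed proteins to the cell surface, where CD4 T cells read them. The chains meet the invariant chain CD74 in the endoplasmic reticulum, and HLA-DM later exchanges the remnant of CD74 for a peptide. CIITA, which does not itself bind DNA, is the switch of the whole set: it docks on RFX, CREB and NF-Y proteins that sit on the X and Y boxes of class II promoters. In myeloid cells CIITA is classically induced by interferon gamma, whereas class I genes also respond to type I interferon.

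The promoters of several of these genes are shown because the libraries differed strongly in interferon-responsive genes. The reference sequence shows which of the letters searched each promoter held. The 250 bases before the start were searched on both strands for the Y box ATTGG, an X2-like box TGATGA, the interferon-stimulated response element core (TTTC, any 2 bases, TTTC) and the interferon gamma activated site TTCNNNGAA. The letters were chosen after the sequences had been read. These were found in 32%, 9.27%, 3.02% and 6.57% of all 35116 promoters in the RefSeq table (GRCh38.p14). The 150 bases before the start are printed 5′ to 3′ on the gene's own strand, and capitals mark X2-like and Y box matches, with CCAAT being the Y box read on the opposite strand.
CD74: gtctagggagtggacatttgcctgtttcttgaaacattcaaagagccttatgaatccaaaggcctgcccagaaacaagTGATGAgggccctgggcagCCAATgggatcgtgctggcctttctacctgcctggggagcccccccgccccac
HLA-DMA: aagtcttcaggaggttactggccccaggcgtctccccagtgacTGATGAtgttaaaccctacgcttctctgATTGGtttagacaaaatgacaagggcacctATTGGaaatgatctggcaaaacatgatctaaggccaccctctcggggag
HLA-DMB: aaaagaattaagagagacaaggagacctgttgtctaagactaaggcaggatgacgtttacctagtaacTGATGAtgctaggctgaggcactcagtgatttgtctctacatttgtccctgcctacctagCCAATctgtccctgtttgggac
HLA-DPB1: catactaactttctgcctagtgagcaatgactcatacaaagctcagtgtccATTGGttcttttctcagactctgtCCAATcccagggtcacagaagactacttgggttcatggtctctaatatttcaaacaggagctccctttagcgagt
These stretches lie at chr5:150412911-150413060 on the minus strand for CD74, chr6:32953098-32953247 on the minus strand for HLA-DMA, chr6:32941029-32941178 on the minus strand for HLA-DMB, and chr6:33075840-33075989 on the plus strand for HLA-DPB1. CD74, HLA-DMA and HLA-DMB held an X2-like match followed by a Y box. In HLA-DMA both were on the gene's strand with 22 bases between them, an arrangement with a gap of 15 to 25 bases that 0.0598% of all promoters held. No other member promoter held it. Since the letters were chosen after these sequences had been read, that share is a description and not a test. Of the letters searched, HLA-DPB1 held Y boxes only, as did HLA-DOA, and neither promoter of HLA-DPA1 held a match. Other letters of the X box were not searched, so these genes are not shown to lack an X box.

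For comparison, 2 class I pathway promoters are printed the same way, with capitals for the interferon-stimulated response element core. Matches overlap in both, and in B2M the letters run on the opposite strand.
TAP1: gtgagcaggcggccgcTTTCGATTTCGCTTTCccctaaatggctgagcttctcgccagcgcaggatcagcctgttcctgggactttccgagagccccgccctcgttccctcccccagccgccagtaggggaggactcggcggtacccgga
B2M: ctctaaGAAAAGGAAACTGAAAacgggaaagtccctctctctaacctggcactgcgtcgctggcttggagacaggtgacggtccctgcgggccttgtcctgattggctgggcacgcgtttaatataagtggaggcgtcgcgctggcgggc
TAP1 lies at chr6:32853705-32853854 on the minus strand and B2M at chr15:44711367-44711516 on the plus strand. The promoters of HLA-DRA and CIITA were not searched. The response element core was found in 0 of the 7 promoters searched for the other 6 members, as was the interferon gamma activated site. Among the 6 class I genes in the table, HLA-F, B2M and TAP1 held the core, and HLA-B, HLA-C and PSMB9 did not. TAP1 held it in the printed promoter only. A further TAP1 promoter held no core but a match to the interferon gamma activated site. Counted by gene, all 6 class I genes also held a Y box match, so a Y box does not tell the members from the class I genes. Y boxes are not capitalized in the class I stretches printed here. A match describes the letters and is not evidence of a bound site.

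Over all probes the libraries were of similar depth, with 12729 to 14152 probes detected at p under 0.01 and mean raw intensities of 362.2 to 457.2. The target gene did not follow the labels. DEK had normalized intensities of 2233, 355 and 2511 in the libraries labelled shDEK14 1 to 3, 448, 1997 and 480 in those labelled shDEK17 1 to 3, and 2337, 330 and 2735 in those labelled shEMPTY 1 to 3. DEK was therefore high in shDEK14 1, shDEK14 3 and shDEK17 2 and low in shEMPTY 2, against those 4 labels, and each result below is read as a comparison of labelled libraries. Whether the 3 libraries of a group came from separate transductions is not stated, and the spread on which the p-values rest may be technical. Of 18 monocytic marker genes with a probe, 17 were detected on at least 1 library, among them ITGB2 (5942 to 11410 over the 9 libraries). Of 10 T and NK cell genes with a probe 3 were detected: NKG7 on 9 libraries (218 to 350), CD4 on 7 (117 to 217) and CD2 on 2 (117 to 150). CD3D, CD3E, CD3G and the other 4 were detected on none.

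HLA-DRA, the nearly monomorphic alpha chain of HLA-DR, was detected on 9 of 9 libraries by its brighter probe. Its normalized intensity was 897, 511 and 683 in shDEK14 1 to 3, 470, 640 and 616 in shDEK17 1 to 3, and 660, 525 and 647 in shEMPTY 1 to 3. The groups overlapped throughout, and the highest library (shDEK14 1) and the lowest (shDEK17 1), which differed 1.91-fold, both carried a hairpin. The dimmer HLA-DRA probe was detected on 4 of 9 libraries and followed another order. It read 137, 142 and 149 in shDEK14 1 to 3, 192, 125 and 125 in shDEK17 1 to 3, and 133, 157 and 137 in shEMPTY 1 to 3. It was highest in shDEK17 1, where the brighter probe was lowest, so the probes disagree on the order of the libraries and no order of HLA-DRA rests on both.

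CD74, the invariant chain that chaperones class II chains and occupies their peptide groove, was detected on 9 of 9 libraries by 2 of its 3 probes. The brightest read 652, 427 and 683 in shDEK14 1 to 3, 522, 588 and 496 in shDEK17 1 to 3, and 510, 614 and 544 in shEMPTY 1 to 3. The second read 336, 248 and 373 in shDEK14 1 to 3, 290, 321 and 297 in shDEK17 1 to 3, and 317, 373 and 256 in shEMPTY 1 to 3. Both probes had their lowest value in shDEK14 2 and their highest in shDEK14 3, so 1 hairpin group spanned the full range of the gene. The third probe lay between 87.6 and 114.6 and was not well above background on any library.

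HLA-DM is the peptide exchange factor of the late endosome, and both of its chains were dim. HLA-DMA, its alpha chain, was detected on 8 of 9 libraries, with 137, 164 and 154 in shDEK14 1 to 3, 168, 158 and 187 in shDEK17 1 to 3, and 162, 161 and 143 in shEMPTY 1 to 3. The undetected library was shEMPTY 3, at a detection p of 0.013. HLA-DMB, its beta chain, was detected on 3 libraries (shDEK17 3, shEMPTY 1 and shEMPTY 2), with 125, 120 and 124 in shDEK14 1 to 3, 118, 139 and 152 in shDEK17 1 to 3, and 147, 148 and 124 in shEMPTY 1 to 3. In the 3 shDEK14 libraries HLA-DMB was not well above background. The groups of both genes overlapped.

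The other 4 members were detected on no library at p under 0.01. CIITA, the regulator, read 105, 121 and 101 in shDEK14 1 to 3, 104, 108 and 102 in shDEK17 1 to 3, and 112, 117 and 96.9 in shEMPTY 1 to 3, with detection p-values of 0.129 to 0.717. Its single probe was thus not well above background in cells whose HLA-DRA and CD74 probes were detected on every library, and it says nothing of a level below the array's reach. HLA-DPA1, the alpha chain of HLA-DP, lay between 82.2 and 103.3, at detection p-values of 0.587 to 0.973. HLA-DPB1, the beta chain, lay between 78.6 and 119.1 at detection p-values of 0.201 to 0.992. HLA-DOA, the alpha chain of HLA-DO, which modulates HLA-DM, lay between 108.3 and 135.2 and had a detection p under 0.05 only in shEMPTY 2, at 0.0455. At that looser threshold 5 of the 8 genes were detected on at least 1 library, against 4 at 0.01.

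**Figure D1:**
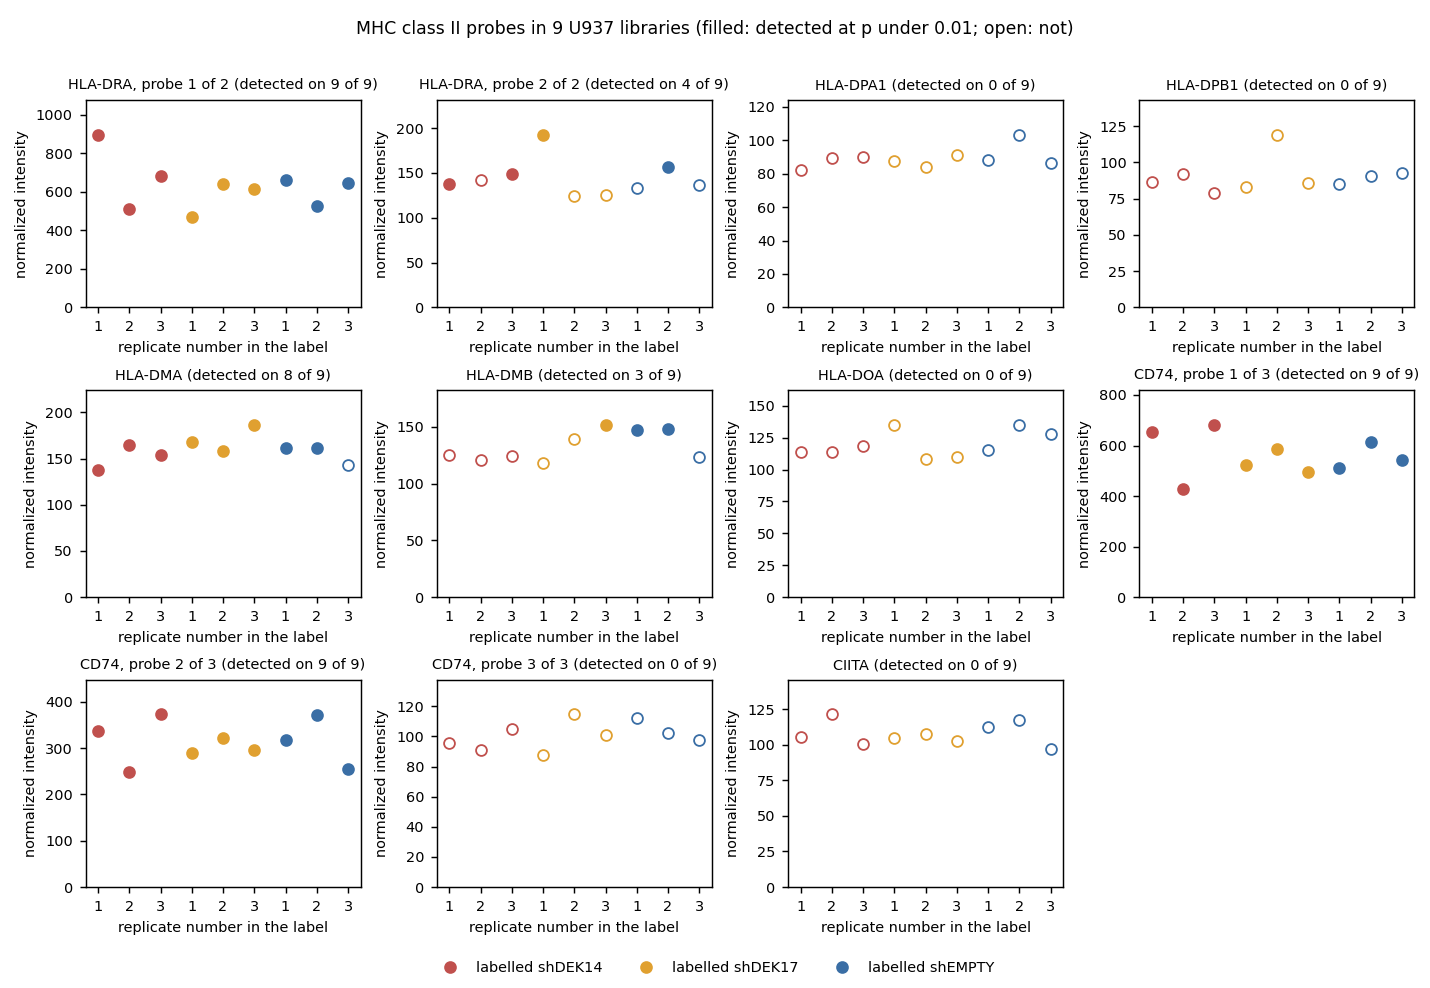
Normalized intensity (y axis, linear, from 0) of the 11 MHC class II probes in the 9 libraries, ordered by label and replicate number on the x axis; filled points are detected at p under 0.01 and open points are not. The brighter HLA-DRA probe and both brighter CD74 probes are detected on 9 of 9 libraries, whereas HLA-DPA1, HLA-DPB1, HLA-DOA and CIITA are detected on none, and the colours overlap in each panel.

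The hairpin libraries were then set against shEMPTY. None of the 4 tested members changed at an adjusted p of 0.05 in limma, where 0% of the 8611 genes were called in each of the 4 contrasts. At an unadjusted p under 0.05 limma gave 452 genes (5.25%) for both hairpins against shEMPTY, and no member among them. None of the 4 had its 6 hairpin libraries all above the 3 shEMPTY libraries, or all below, as 1.5% and 1.59% of all genes had. With both hairpins averaged, 3 of 4 members had a fitted log2 fold change above 0, as did 48.1% of all genes. The median of the 4 was 0.06, against -0.01 over all genes tested. The count and the median include HLA-DMB, which lay near the floor of the array and whose direction is not read.

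HLA-DRA had log2 levels of 9.21 ± 0.41 in shDEK14, 8.95 ± 0.30 in shDEK17 and 9.0 ± 0.24 in shEMPTY (SD, n = 3 each). Its log2 fold change for both hairpins against shEMPTY was 0.08 ± 0.21 (SE, limma adjusted p = 0.987), with a 95% interval of -0.38 to 0.53. CD74 had log2 levels of 8.94 ± 0.38 in shDEK14, 8.85 ± 0.16 in shDEK17 and 8.85 ± 0.14 in shEMPTY. Its fold change was 0.04 ± 0.18 (limma adjusted p = 0.991), with an interval of -0.36 to 0.43. Changes within these intervals, which are not adjusted over the genes tested, are compatible with the 9 arrays. The smallest change that could have been called after adjustment was not determined. Fitted on their own, the dimmer HLA-DRA probe gave 0.09 ± 0.28 (limma adjusted p = 0.989) and the second CD74 probe 0.04 ± 0.21 (limma adjusted p = 0.995).

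HLA-DMA had log2 levels of 6.01 ± 0.29 in shDEK14, 6.35 ± 0.28 in shDEK17 and 5.99 ± 0.23 in shEMPTY. For both hairpins the fold change was 0.20 ± 0.19 (limma adjusted p = 0.965), with an interval of -0.21 to 0.60. HLA-DMB had log2 levels of 5.27 ± 0.13 in shDEK14, where no library detected it, 5.54 ± 0.54 in shDEK17 and 5.61 ± 0.35 in shEMPTY. Its fitted fold change for both hairpins was -0.20 ± 0.23 (limma adjusted p = 0.965). Since 1 of the 6 hairpin libraries detected it, that value lies near the floor of the array and no direction is read from it.

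Taken one hairpin at a time, against the same shEMPTY libraries, the members gave no call either, and 0 of 4 passed an unadjusted p of 0.05, which 4.54% of all genes did for shDEK14 and 3.8% for shDEK17. No member had its 3 shDEK14 libraries all above or all below the shEMPTY libraries (5.49% and 5.56% of all genes), nor its 3 shDEK17 libraries (4.03% and 4.15%). The log2 fold change was above 0 for 3 of 4 members in shDEK14 (49.4% of all genes) and for 1 of 4 in shDEK17 (46.7%). These counts, and the one between the hairpins below, include HLA-DMB, whose direction is not read. For shDEK14 the log2 fold change was 0.21 ± 0.24 for HLA-DRA, 0.09 ± 0.21 for CD74 and 0.03 ± 0.21 for HLA-DMA (limma adjusted p between 0.966 and 0.99). No fold is given for HLA-DMB, which was not well above background in any shDEK14 library. For shDEK17 the values were -0.05 ± 0.24 for HLA-DRA, -0.01 ± 0.21 for CD74, 0.37 ± 0.22 for HLA-DMA and -0.07 ± 0.26 for HLA-DMB (limma adjusted p = 0.999 each). The largest of these, HLA-DMA in shDEK17, had an interval of -0.11 to 0.84. Between the hairpins, shDEK14 over shDEK17, 2 of 4 members were above 0 (49.9% of all genes) and 0 had an unadjusted p under 0.05 (1.81%). HLA-DRA gave 0.26 ± 0.24, CD74 0.09 ± 0.21 and HLA-DMA -0.34 ± 0.21 (limma adjusted p = 1 each).

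**Figure D2:**
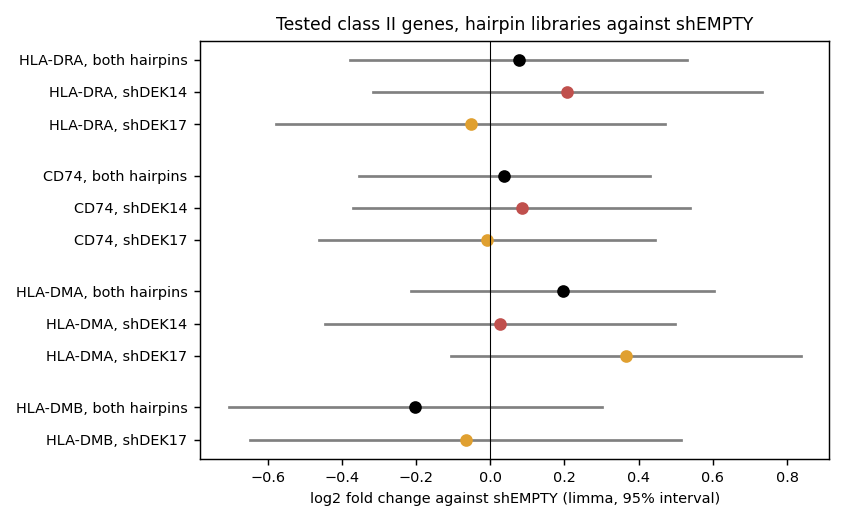
Log2 fold change (x axis) of the tested MHC class II genes against shEMPTY, for both hairpins averaged, shDEK14 and shDEK17; points are limma estimates over 3 libraries a group and bars their 95% intervals. Each bar crosses 0. HLA-DMB has no shDEK14 point because it was not detected in that group, and its other values lie near the floor.

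The library labelled shEMPTY 2 stood apart in interferon-responsive genes, and none of the 4 tested class II members had its highest value there. Of the 22 type I interferon genes tested, 22 were highest of the 9 libraries in shEMPTY 2, and so were 11 of 18 class I and peptide loading genes. Of the 4 class II members tested, 0 were, where 10.5% of all genes had their highest value in that library, a share that 4 genes cannot be told apart from. The count of 0 was the same under each of the 5 other scalings tried. The brighter HLA-DRA probe ranked 7 of 9 in shEMPTY 2 by normalized intensity, HLA-DMA ranked 5, CD74 ranked 3 and HLA-DMB ranked 2. On the log2 values used for the tests these ranks were lower, at 8, 6, 4 and 3. The dimmer HLA-DRA probe and the second CD74 probe both ranked 2 in shEMPTY 2 on either scale. Among the other class II chains HLA-DRB1 was highest in shEMPTY 2, at 164, against 123 to 152 in the other 8.

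The size of that difference can be read from named genes. ISG15, a ubiquitin-like antiviral protein, read 10760 in shEMPTY 2, against 318 to 465 in the other 8 libraries. IFIT1, which binds foreign RNA, read 4783 in shEMPTY 2, against 140 to 207 in the others. HLA-F, a class I gene, read 2800 in shEMPTY 2, against 531 to 858, and HLA-B read 6312, against 1377 to 2472. TAP1, a subunit of the peptide transporter of class I loading, read 1460 in shEMPTY 2, against 540 to 612. HLA-DRA, at 525 in shEMPTY 2, lay inside its range of 470 to 897 in the other 8.

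Averaged over a list, the deviation of shEMPTY 2 from the 9-library mean was 2.90 on the log2 scale for the type I interferon genes, against -0.60 to -0.19 in the other libraries. It was 0.70 for class I and peptide loading, against -0.17 to -0.02. For the 4 class II members it was 0.02, inside the -0.23 to 0.25 of the other 8, as a mean over members above and below 0. For the 3 tested other class II chains it was 0.33, against -0.25 to 0.24. For the 4 tested genes of an interferon gamma signature it was 0.49, against -0.19 to 0.23, and 2 of the 4 were highest in shEMPTY 2. CXCL10, a chemokine induced by either interferon type, read 790 in shEMPTY 2, against 99.7 to 134, and GBP5, a guanylate binding protein, read 478, against 190 to 340. CXCL9, CXCL11 and IDO1 were detected on no library, and CIITA, at 117 in shEMPTY 2, was not well above background there. DEK was also low in shEMPTY 2, and what in that library goes with the interferon genes was not tested.

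**Figure D3:**
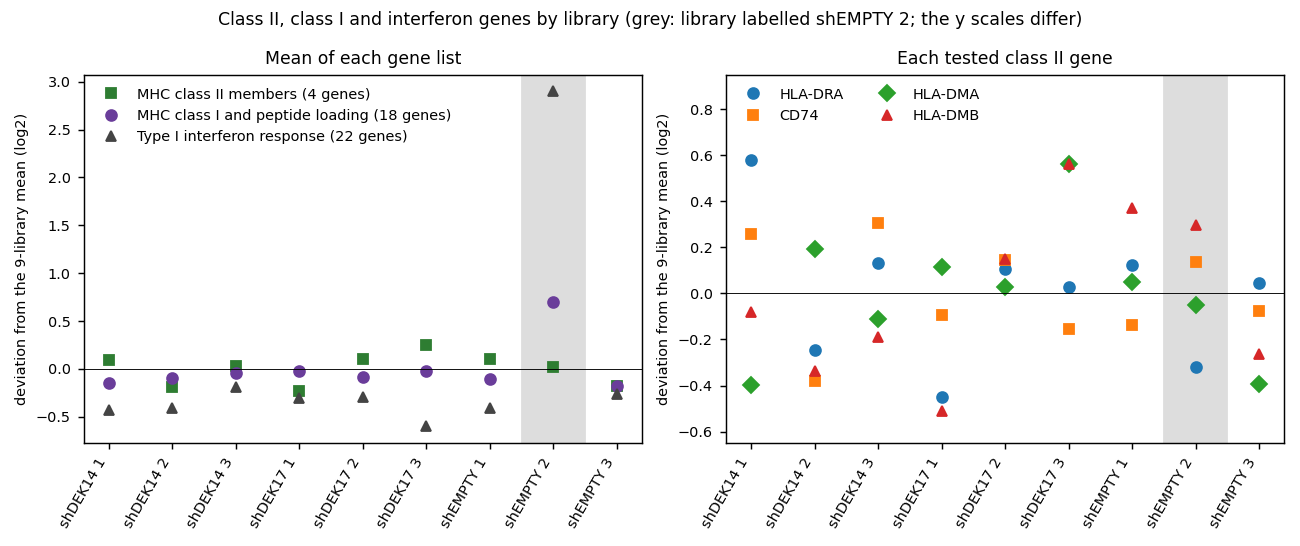
Deviation from the 9-library mean on the log2 scale (y axis) by library (x axis), as the mean of 4 class II, 18 class I and 22 type I interferon genes on the left and for each tested class II gene on the right; the library labelled shEMPTY 2 is shaded and the y scales differ. The interferon mean reaches 2.90 in shEMPTY 2 and the class I mean 0.70, whereas the class II mean is 0.02 there.

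Without shEMPTY 2, the log2 fold change of both hairpins against the remaining shEMPTY libraries was -0.06 for HLA-DRA, 0.12 for CD74, 0.24 for HLA-DMA and -0.12 for HLA-DMB, with no call. Without all 4 libraries whose DEK went against the label, HLA-DRA was -0.31, CD74 -0.15, HLA-DMA 0.44 and HLA-DMB -0.21, each at a limma adjusted p of 1. The estimates of HLA-DRA and CD74 were below 0 in that fit and above 0 with all 9 libraries.

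The class II members were also read against DEK, library by library and with no test, since DEK is itself a measurement. Among the 6 hairpin libraries, shDEK14 1, shDEK14 3 and shDEK17 2 had high DEK. HLA-DRA was above the other 3 hairpin libraries in each of these, at log2 levels of 9.16 to 9.63 against 8.60 to 9.08. CD74 was as well, at 9.03 to 9.18 against 8.50 to 8.79, and its second probe showed the same separation. A separation in that direction was found for 8.2% of all genes tested. HLA-DMA lay below in the same libraries, at 5.72 to 6.14 against 6.23 to 6.68, as did 10.5% of all genes tested. HLA-DMB overlapped, at 5.28 to 5.62 against 4.96 to 6.04, and so did the dimmer HLA-DRA probe.

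The shEMPTY libraries gave a mixed picture for the same genes. HLA-DRA read 525 in shEMPTY 2, where DEK was low, against 660 and 647 in shEMPTY 1 and 3. Its brighter probe was therefore lower in each of the 4 libraries with low DEK than in any of the 5 with high DEK, an order that 1.18% of all genes tested had and 1.15% had in reverse. The gap is narrow, with 640 in shDEK17 2 and 616 in shDEK17 3, and under median scaling HLA-DRA was separated neither over the hairpin libraries nor over all 9. The dimmer probe showed no such order under any scaling. CD74 ran the other way, with 614 in shEMPTY 2, against 510 and 544 in shEMPTY 1 and 3. HLA-DMA read 161 in shEMPTY 2, against 162 and 143. CD74 and HLA-DMA were separated under each scaling tried among the 6 hairpin libraries, and under none over all 9. These library sets follow a measured DEK level and not the labels, and they were read after the values were known.

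**Figure D4:**
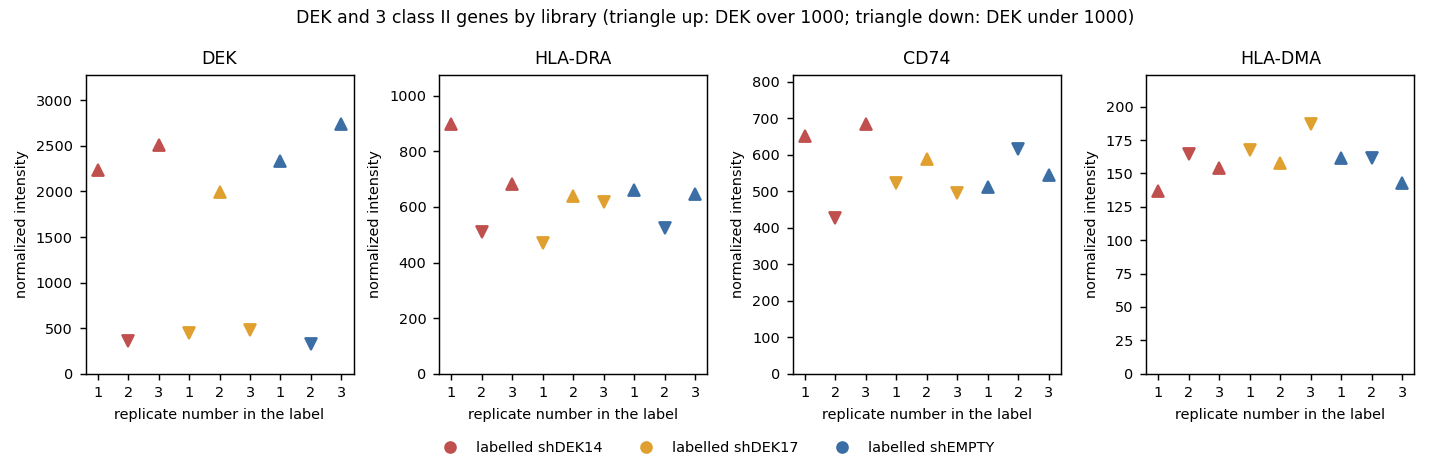
Normalized intensity (y axis, linear, from 0) of DEK, HLA-DRA, CD74 and HLA-DMA in the 9 libraries, ordered by label and replicate number on the x axis; upward triangles mark libraries with DEK over 1000 and downward triangles those under 1000. Among the 6 hairpin libraries the upward triangles lie above the downward ones for HLA-DRA (narrowly, 640 against 616) and CD74 and below them for HLA-DMA. With the shEMPTY libraries included the order fails for CD74 (614 in shEMPTY 2 and 510 in shEMPTY 1) and for HLA-DMA (162 in shEMPTY 1, against 161 in shEMPTY 2).

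Other class II chains had probes for 9 of the 12 genes listed, and 3 were tested. HLA-DRB3, a beta chain that pairs with HLA-DRA in some haplotypes, was detected on 9 of 9 libraries with 404, 396 and 560 in shDEK14 1 to 3, 704, 387 and 426 in shDEK17 1 to 3, and 366, 554 and 492 in shEMPTY 1 to 3. It was highest in shDEK17 1, where the brighter HLA-DRA probe was lowest. HLA-DRB4 read 129, 149 and 131 in shDEK14 1 to 3, 184, 166 and 135 in shDEK17 1 to 3, and 180, 176 and 177 in shEMPTY 1 to 3. Its 3 shDEK14 libraries lay below the 3 shEMPTY libraries, as did those of 5.56% of all genes tested. The log2 fold change of HLA-DRB4 for both hairpins was -0.53 ± 0.20 (limma adjusted p = 0.937). This probe was detected on 6 of 9 libraries, and further HLA-DRB4 probes were detected on 0 and on 1. HLA-DRB1 was dimmer, with 123 to 164 over the 9 libraries. The DRB genes are near-identical and differ between haplotypes, so which gene a DRB probe measured in U937 is uncertain. HLA-DQA2, HLA-DQB1, HLA-DOB, HLA-DPB2 and HLA-DRB5 were detected on no library.

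The proteins on which CIITA docks were measured far more widely than CIITA. Of 7 enhanceosome genes with a probe, 6 were detected and tested, 2 with a higher and 4 with a lower estimate in hairpin libraries, with no call. RFX5, the DNA-binding subunit of the RFX complex, read 657, 622 and 843 in shDEK14 1 to 3, 766, 527 and 428 in shDEK17 1 to 3, and 605, 712 and 769 in shEMPTY 1 to 3. RFXAP, a further RFX subunit, lay between 186 and 279, and NFYA and NFYC, subunits of NF-Y, between 148 and 217 and between 235 and 345. NFYB was detected on no library. None of the 6 was separated by DEK among the hairpin libraries in either direction.

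Of the genes that control CIITA, 10 were tested, with 6 estimates higher, 4 lower and no call. IFNGR1, the ligand-binding chain of the interferon gamma receptor, read 1367, 621 and 1406 in shDEK14 1 to 3, 923, 1153 and 589 in shDEK17 1 to 3, and 896, 782 and 996 in shEMPTY 1 to 3. It was above the other hairpin libraries in those with high DEK, as was IFNGR2, the second receptor chain, whereas IRF8, a myeloid transcription factor, lay below. That is 2 of 10 above and 1 of 10 below, beside 8.2% and 10.5% of all genes. The receptor kinases JAK1 (194 to 381) and JAK2 (119 to 193) had overlapping groups. PRDM1, a repressor of CIITA in plasma cells, read 175 to 295. Among 12 tested loading and trafficking genes, 5 estimates were higher and 7 lower with no call. By their tested probes CD82, CD83, CTSB, CTSH and LAMP2 lay below in the hairpin libraries with high DEK, beside 10.5% of all genes. None of the 12 lay above, beside 8.2%. Further probes of the genes that lay below were mixed by normalized intensity. A dimmer CTSB probe, detected on 9 libraries, overlapped, at 410, 400 and 385 with high DEK against 361, 340 and 389. The dimmer CD82 and CTSH probes overlapped too, that of CD83 lay below, and those of LAMP2 differed among themselves. SPPL2A, the protease that clears the CD74 remnant from the membrane, read 627, 465 and 679 in shDEK14 1 to 3, 497, 495 and 522 in shDEK17 1 to 3, and 455, 352 and 490 in shEMPTY 1 to 3, a log2 fold change of 0.48 ± 0.18 (limma adjusted p = 0.937). CD83, which protects class II from ubiquitination, read 340, 467 and 380 in shDEK14 1 to 3, 416, 382 and 530 in shDEK17 1 to 3, and 586, 423 and 607 in shEMPTY 1 to 3. The cysteine proteases CTSL and LGMN were detected on 4 libraries each.

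Markers of other class II positive cells were partly detected. Of 10 B cell genes with a probe, CD79A was detected on 8 libraries and CD79B on 9, and the other 8, MS4A1 and PAX5 among them, on none. The summed intensity of the list's 18 probes was 2368 to 2545 in shDEK14, 2480 to 2645 in shDEK17 and 2632 to 2728 in shEMPTY. Only 4 of the 18 were detected on at least 3 libraries, so the sums carry much array background. Array medians over all probes were 110.1 to 115.1 in shDEK14, 112.3 to 119.1 in shDEK17 and 115.5 to 119.3 in shEMPTY. How far these medians account for the sums was not tested. Of 12 dendritic cell genes 3 were detected on any library (CD1A, FCER1A and LAMP3). Of the list's 20 probes, 1 was detected on at least 3 libraries. The 20 summed to 2127 to 2162 in shDEK14, 2050 to 2248 in shDEK17 and 2104 to 2214 in shEMPTY. CD79B, a B cell receptor chain, read 427, 347 and 510 in shDEK14 1 to 3, 422, 367 and 405 in shDEK17 1 to 3, and 536, 481 and 531 in shEMPTY 1 to 3. CD79A, its partner chain, read 176, 192 and 178 in shDEK14 1 to 3, 148, 249 and 359 in shDEK17 1 to 3, and 268, 190 and 248 in shEMPTY 1 to 3, and was highest in shDEK17 3, as HLA-DMA and HLA-DMB were. The part of such genes in the class II values was not tested. With bulk RNA, fewer cells with a transcript and less of it per cell cannot be told apart.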

How the data were processed

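Gene expression in 9 libraries of U937 cells was analysed, 3 per label group. The authors deposited, for 47323 probes, raw bead intensities with a detection p-value against the negative control beads of each array, and a table of normalized intensities. The normalized intensities were linear, not centred, and equal to the raw ones times 1 factor per array, which gave each array a mean of 406.2 and medians of 110.1 to 119.3. The scanner software and the factor's method are not given in the sources used here. Levels in the report are normalized intensities. They are not compared between probes, and the number of arrays limits their precision. Tests used limma 3.58.1 in R 4.3.3 on raw intensities after neqc (offset 16, quantile normalization, log2). A probe was kept if 3 or more arrays had a detection p under 0.01, and the kept probe with the highest mean stood for a gene. Groups followed the labels, in 1 fit over 9 arrays, with Benjamini-Hochberg adjustment over 8611 genes and a threshold of 0.05. The fit was tested on simulated data.

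Gene names came from the platform annotation (1 symbol for 30113 probes, several for 8 and none for 17202), and 30074 were matched to RefSeq GRCh38.p14 by gene identifier. Promoter sequences are from RefSeq GRCh38.p14. All members were named, with DEK, and in each other gene list up to 4 tested genes with the largest range over the 9 libraries. TAP1, CXCL10, ITGB2, CD2, IFNGR2, IRF8, CD82, CTSB, CTSH, LAMP2 and the undetected genes fall outside this rule and were chosen with their values known. For members with a log2 range of at least 1, the 3 genes with the smallest root mean square difference were also named. The members and lists were chosen with earlier results of these data known. Alternatives were other background corrections, scalings and detection filters, every probe, a replicate block, the compared groups alone, the methods' t-test and leaving out each library. Leaving out the 4 libraries whose DEK went against the label was chosen after seeing the data.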

Additional observations from a re-analysis of the deposited data

How the results depend on the processing

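Of 308 member log2 fold changes under the alternatives, 279 kept their direction, 29 reversed and 0 passed the threshold. Many of the 308 could not change. Other detection filters, every probe, the replicate block and the compared groups alone leave a member's estimate as it was. So does leaving out a library of a group outside the comparison. The 279 are therefore not a measure of robustness. The count of genes called was 0 in each contrast under each alternative with all libraries or with 1 left out. Only without the 4 libraries whose DEK goes against the label was 1 gene called in each comparison with shEMPTY. It was DEK itself, at -2.90 for both hairpins (limma adjusted p = 0.00493), -3.12 for shDEK14 (limma adjusted p = 0.0256) and -2.68 for shDEK17 (limma adjusted p = 0.0167). These libraries were left out by their DEK level, so the call on DEK restates that choice. That setting leaves 1 shDEK14 library, assumed to vary like the others. There HLA-DRA was -0.31 for both hairpins, -0.33 for shDEK14 and -0.034 for shDEK14 over shDEK17, and CD74 was -0.15, -0.28 and -0.26 in the same comparisons. On the deposited normalized values CD74 was -0.0012 for both hairpins and HLA-DMA -0.033 for shDEK14. The cause of these changes was not tested.

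Leaving out 1 library at a time, the range for both hairpins was -0.058 (without shEMPTY replicate 2) to 0.18 for HLA-DRA, -0.023 to 0.15 for CD74, 0.064 (without shEMPTY replicate 3) to 0.29 for HLA-DMA and -0.40 (without shEMPTY replicate 3) to -0.057 (without shDEK17 replicate 1) for HLA-DMB. For shDEK14 it was -0.0044 (without shDEK14 replicate 1) to 0.41 for HLA-DRA, -0.037 to 0.31 for CD74 and -0.12 to 0.17 for HLA-DMA. For shDEK17 it was -0.19 to 0.12 for HLA-DRA, -0.10 to 0.072 for CD74, 0.20 (without shDEK17 replicate 3) to 0.47 for HLA-DMA and -0.31 to 0.22 for HLA-DMB. For shDEK14 over shDEK17, CD74 ranged over -0.028 to 0.32.

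The raw data name each library by an experiment number, equal to its replicate number. Correlations of same-numbered deviations were -0.43 to 0.27, and 1 of 9 was over 0.1. With libraries whose DEK went against the label among them, these values cannot show whether the experiments were paired. With the replicate block the count of calls stayed 0. HLA-DRA was 0.08 for both hairpins as without it, since a block balanced over the groups cannot change the estimate. The methods' t-test gave 0 calls after Benjamini-Hochberg adjustment and 456 genes for shDEK14 and 330 for shDEK17 at an unadjusted p under 0.05. HLA-DMA and HLA-DMB lie close to background, which limits what the arrays can show of them.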

Other observations

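The tested genes whose pattern over the 9 libraries lay closest to that of HLA-DRA were LDLRAD4-AS1, KLHL2 and CENPA, with root mean square differences of 0.067, 0.112 and 0.126 on the log2 scale. CENPA, the centromeric histone H3 variant, read 1701, 1079 and 1235 in shDEK14 1 to 3, 980, 1275 and 1137 in shDEK17 1 to 3, and 1196, 923 and 1117 in shEMPTY 1 to 3. Closest to HLA-DMB were IP6K1, ZNRD2 and RNF187, at 0.137, 0.139 and 0.143. They are the closest of 8611 genes and are given as a description only.

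Among the monocytic genes, CTSG, a serine protease of azurophil granules, separated the hairpin libraries more widely than any class II member. It read 197, 1077 and 198 in shDEK14 1 to 3, 746, 176 and 843 in shDEK17 1 to 3, and 918, 1209 and 541 in shEMPTY 1 to 3. PRTN3, a granule protease too, read 97.9, 223 and 99.8 in shDEK14 1 to 3, 193, 107 and 227 in shDEK17 1 to 3, and 134, 170 and 124 in shEMPTY 1 to 3. FCGR1A, the high-affinity Fc receptor and a classic interferon gamma target, ran the other way among the hairpin libraries, with 330, 233 and 282 in shDEK14 1 to 3, 205, 319 and 251 in shDEK17 1 to 3, and 225, 349 and 209 in shEMPTY 1 to 3. These genes were picked with their values known, and none was called. In shEMPTY 2, where DEK was low, CTSG and FCGR1A both had their highest value of the 9 libraries.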
